A study of Mus musculus with 9 samples.

Results

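Oxidative phosphorylation is carried by 5 protein complexes of the inner mitochondrial membrane, and the nuclear genes of their subunits were followed here in the liver of mice expressing IFNα. The members are all genes on the array whose symbol belongs to the families Nduf (complex I), Sdha to Sdhd (complex II), Uqcr (complex III), Cox4 to Cox8 (complex IV) and Atp5 (complex V). The rule that selects them uses symbols and no measured value. This gave 93 of 19494 named genes, each with 1 probe set, of which 44 belong to complex I, 4 to complex II, 8 to complex III, 20 to complex IV and 17 to complex V. The complex IV members Cox7b2 and Cox8b did not pass the filter on low values, so 91 members were tested. Subunits encoded by the mitochondrial genome were not analysed here.

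Liver RNA came from C57BL/6 mice of 6 weeks, females according to the methods, with 3 mice in each of 3 groups. Mock mice were not injected, AAV-IFNα mice received an AAV8 vector encoding mouse IFNα1, and AAV combination mice received that vector together with AAV-L37pA, which encodes an apolipoprotein A-I mimetic peptide. Both transgenes were driven by the EF1α promoter, which is active in many cell types, and livers were taken 15 days after a single intravenous injection. The groups lack an arm with only AAV-L37pA and an arm with a vector without IFNα, and the total vector dose was higher in the combination. Against Mock, transgene and vector effects thus cannot be told apart. Between the injected groups, the peptide and the higher vector dose cannot be told apart either. The values are log2 signals of 1 Affymetrix array per mouse, and precision is limited by the 3 arrays of a group.

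Complex I takes electrons from NADH and complex II takes them from succinate, both pass them through coenzyme Q to complex III, and complex IV hands them from cytochrome c to oxygen. The protons pumped on the way drive the ATP synthase, complex V. Hepatocytes are rich in mitochondria and use this ATP for glucose, urea and lipid metabolism. Most subunits are encoded in the nucleus, and their genes are known to share binding sites for nuclear respiratory factor 1 (NRF-1) and for ETS family factors such as NRF-2 in their promoters.

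The promoters of the members were read from the RefSeq sequences of the GRCm38.p6 build, from 250 bases before to 50 after the annotated start, to show what the genes share in sequence. An entry was found for 77 of the 93 members, with 82 promoters on 17 chromosomes. The letters were searched on both strands exactly as given, with N for any base, so related spellings of a motif were not counted. The NRF-1 core GCGCATGC stood in 12 of the 82 member promoters (14.6%), against 2.71% of all 32851 promoters of the table and 3.66% of the 19133 promoters of genes on the array. The ETS core CGGAAG stood in 36 (43.9%), against 16.9% and 21.6%. The YY1 motif AAGATGGCG stood in 8 (9.76%), against 1.40% and 1.91%, and the estrogen-related receptor motif AAGGTCA also stood in 8 (9.76%), against 4.72% and 3.93%. The interferon-stimulated response element, searched as 2 copies of GAAA with 2 bases between them, stood in 2 (2.44%), against 3.44% of all promoters, and the STAT motif TTCNNNGAA in 6 (7.32%), against 8.30%. No motif contains another, and a match is a description of the letters and not a binding site.

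The promoters shown are 3 of members that were lower with AAV-IFNα than in Mock (Ndufb10, Ndufb7 and Uqcr11) and 2 of members that were not called (Sdhb and Cox6a1). Each runs from 250 bases before the start to 30 after it, 5′ to 3′ on the strand of the gene, and capitals mark the NRF-1 or ETS core on either strand. They lie at chr17:24724394-24724673 on the minus strand (Ndufb10), chr8:83566508-83566787 on the plus strand (Ndufb7), chr10:80406792-80407071 on the minus strand (Uqcr11), chr4:140961021-140961300 on the plus strand (Sdhb) and chr5:115348929-115349208 on the minus strand (Cox6a1).
Ndufb10: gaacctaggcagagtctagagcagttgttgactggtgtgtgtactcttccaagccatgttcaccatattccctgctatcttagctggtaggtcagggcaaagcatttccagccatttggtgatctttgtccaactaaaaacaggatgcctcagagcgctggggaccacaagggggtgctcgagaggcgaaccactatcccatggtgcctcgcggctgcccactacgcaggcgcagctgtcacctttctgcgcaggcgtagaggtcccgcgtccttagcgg
Ndufb7: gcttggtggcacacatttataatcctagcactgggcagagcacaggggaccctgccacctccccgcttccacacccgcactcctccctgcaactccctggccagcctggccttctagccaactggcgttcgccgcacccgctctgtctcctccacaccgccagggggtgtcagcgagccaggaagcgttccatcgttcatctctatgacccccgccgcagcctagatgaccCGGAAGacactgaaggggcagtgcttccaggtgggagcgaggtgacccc
Uqcr11: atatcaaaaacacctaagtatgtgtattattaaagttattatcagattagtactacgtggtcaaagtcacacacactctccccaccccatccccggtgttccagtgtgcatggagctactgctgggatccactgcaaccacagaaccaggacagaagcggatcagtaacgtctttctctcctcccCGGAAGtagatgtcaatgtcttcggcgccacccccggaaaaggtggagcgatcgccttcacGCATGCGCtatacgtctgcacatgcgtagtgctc
Sdhb: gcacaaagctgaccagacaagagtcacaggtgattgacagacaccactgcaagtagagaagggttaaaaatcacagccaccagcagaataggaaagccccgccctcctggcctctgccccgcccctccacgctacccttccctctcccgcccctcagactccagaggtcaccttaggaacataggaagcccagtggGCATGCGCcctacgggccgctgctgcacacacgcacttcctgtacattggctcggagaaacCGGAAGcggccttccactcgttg
Cox6a1: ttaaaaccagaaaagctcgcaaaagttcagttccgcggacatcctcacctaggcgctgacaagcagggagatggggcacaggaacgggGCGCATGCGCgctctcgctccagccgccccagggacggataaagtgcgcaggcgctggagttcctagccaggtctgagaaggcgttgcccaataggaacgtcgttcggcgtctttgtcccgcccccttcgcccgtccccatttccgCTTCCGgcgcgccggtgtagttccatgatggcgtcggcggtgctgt
Ndufb10 held neither core in exactly these letters in this window, Ndufb7 held the ETS core, and Uqcr11, Sdhb and Cox6a1 held both. Runs close to a core but not identical to it were not searched or marked. In Cox6a1 the NRF-1 core matched on both strands at overlapping letters, which are shown as 1 run. Of the 10 members that were lower with AAV-IFNα, 7 had a promoter entry. In the exact letters searched, 5 of these 7 held none of the NRF-1, ETS, YY1 and estrogen-related receptor motifs. Of the 77 members with an entry, 30 held none of the 4. Members called and members not called therefore both included promoters with and without the cores.

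With AAV-IFNα, 10 of the 91 members tested were called lower than in Mock and none was called higher. The 10 were Ndufb10, Ndufb11, Ndufb7, Ndufs1 and Ndufv1 of complex I, Uqcrfs1, Uqcrq and Uqcr11 of complex III, Cox4i1 of complex IV and Atp5g1 of complex V. Their log2 differences lay between -0.72 and -0.41, so Ndufb10 decreased by 39.4% and Uqcr11 decreased by 25%. A call is an adjusted p under 0.05 in limma's two-sided test over all 14715 probe sets tested. Of all probe sets tested, 16.3% were called, 5.06% lower and 11.2% higher, against 10 and 0 of the 91 members. Among probe sets with a mean above 8 on the log2 scale, where 65 members lie, 4.64% were called lower against 6 members. The methods' own cut-off was a B-statistic above 0, which only Ndufb10 passed, against 6.03% of all probe sets.

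The median over the 91 members was -0.16, with 25% of them below -0.30 and 25% above -0.04, against a median of -0.02 over all probe sets and 0.07 over those with a mean above 8. The log2 difference was below 0 in 74 members (81.3%), against 52.5% of all probe sets. In 34 members every AAV-IFNα mouse lay below every Mock mouse, against 16.4% of all probe sets, and in no member did every AAV-IFNα mouse lie above, against 19.6%. At an unadjusted p under 0.05, 24 members were lower and 0 higher, against 13.7% and 18.3% of all probe sets. The count of calls rested on single arrays. It was 2, 5 and 5 without Mock replicate 1, 2 and 3, then 4, 3 and 7 without AAV-IFNα replicate 1, 2 and 3, and 9, 7 and 7 without AAV combination replicate 1, 2 and 3. Ndufb10 was the member called in each of these fits, with an adjusted p of at most 0.011. Scaling also changed the count, which was 22 after another quantile normalization and 13 with arrays centred on their median, all lower. Over all probe sets, 745 lower and 1655 higher calls became 1157 and 1384 with the quantile normalization and 1246 and 1405 with the centring.

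**Figure D1:**
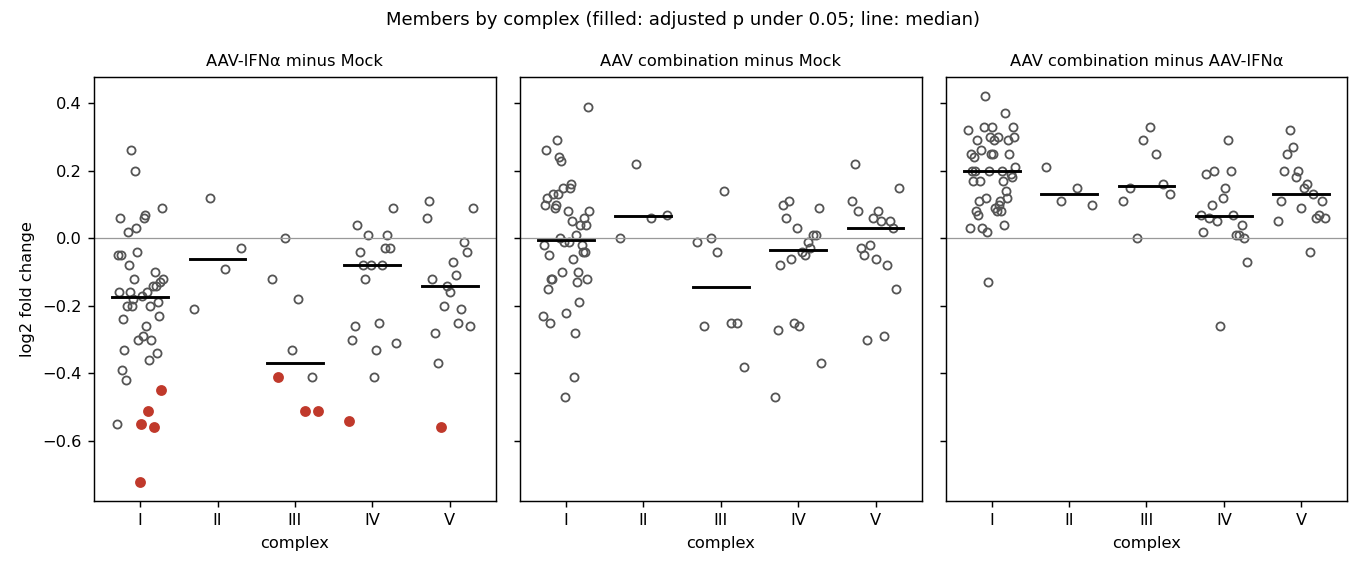
Log2 fold change of each member tested (points, jittered sideways) by complex in the 3 comparisons, with filled points for an adjusted p under 0.05 and a line at the median of each complex. All 10 filled points lie in AAV-IFNα minus Mock, between -0.72 and -0.41, and most points of AAV combination minus AAV-IFNα lie above 0.

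On the single arrays, the median deviation of the 91 members from their mean over 9 arrays was 0.03, 0.12 and 0.04 in Mock, and -0.11, -0.11 and -0.08 with AAV-IFNα. It was 0.17, -0.04 and 0.00 in the AAV combination. The AAV-IFNα arrays were thus the lowest of the 9, and combination replicate 1 was the highest of all, apart from the other combination mice. Over all probe sets the same medians lay between -0.02 and 0.02. Complex I repeated this order, with 0.01, 0.08 and 0.04 in Mock, -0.12, -0.14 and -0.13 with AAV-IFNα and 0.21, -0.04 and 0.02 in the combination. In complex II the groups overlapped. In complex III the AAV-IFNα arrays were at -0.11, -0.23 and -0.14, below every Mock array, and combination replicate 2 lay among them at -0.15. In complex IV, AAV-IFNα replicate 3 and combination replicate 2 were both at -0.04. The spread between mice of a group was small, with a median within-group SD of 0.14 over the members and 0.18 over all probe sets.

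**Figure D2:**
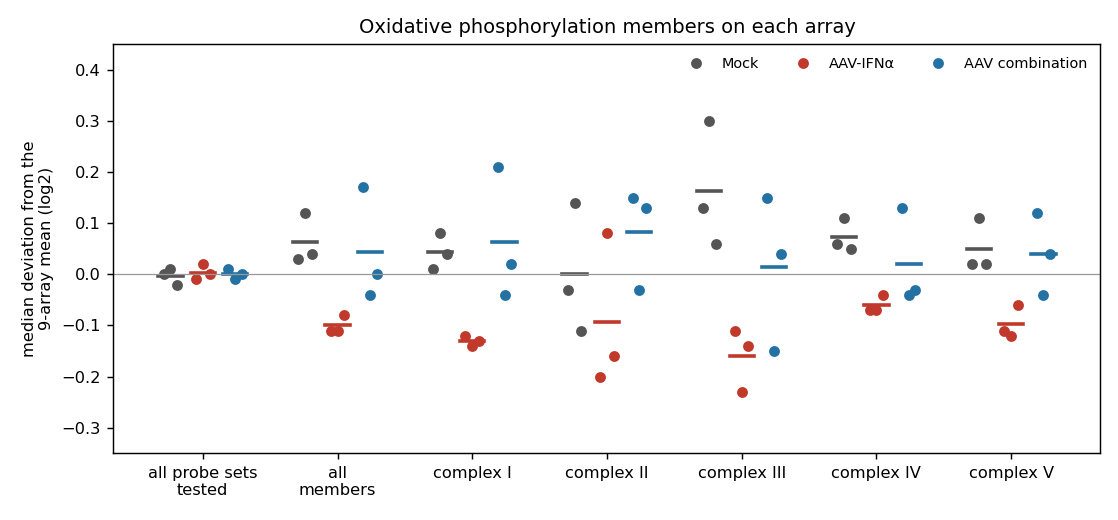
Median deviation from the 9-array mean (log2 units) on each array, for all probe sets tested, all members and each complex. Points are single mice and lines are the means of 3 mice; the AAV-IFNα points of all members lie between -0.11 and -0.08, below every point of the other groups.

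Complex I, the NADH dehydrogenase, was measured with 6 core subunits, 30 accessory subunits and 8 assembly factors named Ndufaf. Against Mock, the median log2 difference with AAV-IFNα was -0.18 for the core subunits, with 2 of 6 called lower. It was -0.19 for the accessory subunits, with 3 of 30 called, and -0.08 for the assembly factors, with 0 of 8 called. At an unadjusted p under 0.05, 0 assembly factors were lower or higher.

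Ndufv1 holds the site where NADH gives up its electrons. Its log2 values were 10.04, 10.05 and 10.05 in Mock, 9.59, 9.63 and 9.58 with AAV-IFNα, and 10.12, 9.81 and 9.86 in the combination. The AAV-IFNα mice lay below all others, and the Mock and combination mice overlapped. The difference from Mock with AAV-IFNα was -0.45 ± 0.12 (SE; limma adjusted p = 0.026). The call was lost when any 1 of the 6 Mock or AAV-IFNα arrays was left out, with an adjusted p up to 0.077. Ndufs1, the largest core subunit and an iron-sulphur protein, measured 8.55, 8.85 and 8.45 in Mock, 7.85, 8.36 and 7.96 with AAV-IFNα, and 8.53, 8.28 and 8.45 in the combination. It was lower with AAV-IFNα by -0.56 ± 0.16 (adjusted p = 0.031), without overlap. That call was lost without Mock replicate 1 or 2 or AAV-IFNα replicate 1 or 3, with an adjusted p up to 0.12. Ndufv2, the iron-sulphur partner of Ndufv1, differed by 0.09 ± 0.14 (adjusted p = 0.71), with a 95% interval from -0.22 to 0.40. Ndufs3, Ndufs7 and Ndufs8, further core subunits, had differences of -0.10, -0.23 and -0.13 with no call.

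The Ndufb genes encode accessory subunits of the membrane arm of complex I, and 3 of their 11 members were called lower with AAV-IFNα, with a median of -0.26. Ndufb10 measured 7.21, 7.45 and 7.47 in Mock, 6.70, 6.66 and 6.59 with AAV-IFNα, and 7.07, 6.77 and 6.86 in the combination. Every AAV-IFNα mouse lay below every combination mouse, and every combination mouse below every Mock mouse. Its difference with AAV-IFNα was -0.72 ± 0.13 (limma adjusted p = 0.0022), the lowest of all members. Ndufb11 measured 8.0, 7.71 and 7.73 in Mock, 7.31, 7.23 and 7.24 with AAV-IFNα, and 7.78, 7.47 and 7.53 in the combination. Only the AAV-IFNα mice stood apart. The difference from Mock was -0.55 ± 0.13 (adjusted p = 0.014), with an adjusted p of 0.059 without Mock replicate 1.

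Ndufb7 measured 7.58, 7.51 and 7.94 in Mock, 7.34, 6.91 and 7.24 with AAV-IFNα, and 7.34, 7.27 and 7.21 in the combination. Both injected groups lay below Mock and overlapped each other. The difference with AAV-IFNα was -0.51 ± 0.15 (limma adjusted p = 0.038), and the call was lost without Mock replicate 1 or 3, AAV-IFNα replicate 2 or 3 or AAV combination replicate 2 or 3, with an adjusted p up to 0.14. Ndufb4 and Ndufb4b differed by 0.06 and 0.07, with adjusted p values of 0.77 and 0.71. These genes are near-identical copies, so their probe sets may read each other's transcripts. Ndufa1, an accessory subunit chosen here after its values were seen, had a difference of -0.55 ± 0.20 (adjusted p = 0.081) and was called without Mock replicate 2 (adjusted p = 0.025). The highest difference of all members was that of Ndufaf1, an assembly factor, at 0.26 ± 0.16 (adjusted p = 0.27).

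**Figure D3:**
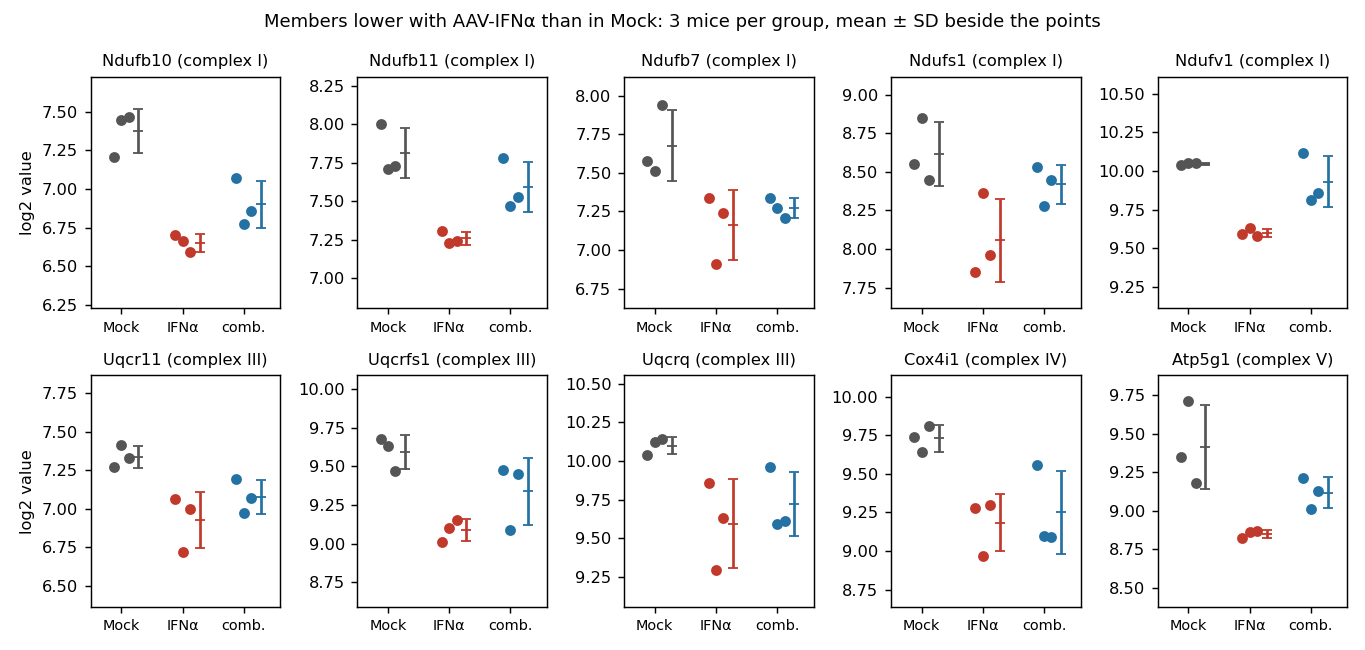
Log2 values of the 10 members called lower with AAV-IFNα than in Mock, with 1 point per mouse and mean ± SD (n = 3) beside the points; each panel spans its own range of values. In all 10 panels the AAV-IFNα points lie below the Mock points, and the combination points lie between or overlap them.

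Complex II, succinate dehydrogenase, is also an enzyme of the citric acid cycle, and none of its 4 subunits was called in any comparison. At an unadjusted p under 0.05 the count was also 0 in each comparison. Sdha, which binds the flavin, measured 8.39, 8.57 and 8.49 in Mock, 8.12, 8.51 and 8.19 with AAV-IFNα, and 8.65, 8.33 and 8.47 in the combination, with all groups overlapping. Its difference with AAV-IFNα was -0.21, with a 95% interval from -0.52 to 0.09. Sdhb, the iron-sulphur subunit, differed by 0.12 (-0.17 to 0.41). The membrane anchors Sdhc and Sdhd differed by -0.09 and -0.03.

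Complex III, cytochrome bc1, had the lowest median of the 5 complexes with AAV-IFNα, at -0.37 over its 8 members, with 3 called lower. Uqcrfs1, the Rieske iron-sulphur protein, measured 9.68, 9.63 and 9.47 in Mock, 9.01, 9.10 and 9.15 with AAV-IFNα, and 9.48, 9.09 and 9.45 in the combination. The AAV-IFNα mice lay below all Mock mice, and combination replicate 2 lay among the AAV-IFNα mice. The difference was -0.51 ± 0.14 (limma adjusted p = 0.025), and the call was lost without Mock replicate 1 or 2 or AAV-IFNα replicate 1 or 2, with an adjusted p up to 0.086.

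Uqcrq and Uqcr11 are small subunits that carry no redox centre. Uqcrq measured 10.04, 10.12 and 10.14 in Mock, 9.86, 9.29 and 9.63 with AAV-IFNα, and 9.96, 9.59 and 9.61 in the combination. Both injected groups lay below Mock. The difference with AAV-IFNα was -0.51 ± 0.16 (limma adjusted p = 0.047) and lost its call when any 1 of Mock replicates 1 to 3, AAV-IFNα replicates 2 and 3 and combination replicates 2 and 3 was left out, with an adjusted p up to 0.18. Uqcr11 measured 7.27, 7.41 and 7.33 in Mock, 7.06, 6.72 and 7.0 with AAV-IFNα, and 7.19, 6.97 and 7.07 in the combination. Here too both injected groups lay below Mock, but the difference of -0.41 ± 0.13 (adjusted p = 0.048) lost its call when any 1 of the 9 arrays was left out, with an adjusted p up to 0.17. Of the other members, Uqcrh, the hinge protein at the cytochrome c1 subunit, had a difference of -0.41 (adjusted p = 0.053). Uqcrc1, a core protein without a redox centre, had -0.33 (adjusted p = 0.18). Uqcrb differed by 0.00, with a 95% interval from -0.26 to 0.27. Differences between members of the complex were not tested.

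Complex IV, cytochrome c oxidase, had a median of -0.08 over 18 members tested, with 1 called lower. This was Cox4i1, the widely expressed form of subunit 4, which is among the first nuclear subunits to join the complex. Cox4i1 measured 9.74, 9.64 and 9.81 in Mock, 9.28, 8.97 and 9.30 with AAV-IFNα, and 9.56, 9.10 and 9.09 in the combination. Both injected groups lay below Mock and overlapped each other. The difference with AAV-IFNα was -0.54 ± 0.15 (limma adjusted p = 0.030), and the call was lost without Mock replicate 1 or 3 or AAV-IFNα replicate 1 or 2, with an adjusted p up to 0.12.

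Several complex IV subunits have a form used in liver and another restricted to heart, skeletal muscle, lung or testis. Among the liver forms, Cox6a1 differed by -0.04 (95% interval -0.32 to 0.24) and Cox8a by 0.01 (-0.27 to 0.29) with AAV-IFNα. Cox6b1 differed by -0.12 (adjusted p = 0.54). Cox7a2 measured 9.05, 9.15 and 9.03 in Mock, 8.75, 8.71 and 8.77 with AAV-IFNα, and 9.07, 9.13 and 8.92 in the combination. Its AAV-IFNα mice lay below all others, at a difference of -0.33 ± 0.12 that missed the threshold (limma adjusted p = 0.072). Cox5a, which binds subunit 4, had -0.26 (adjusted p = 0.15), and Cox7a2l, a factor of respiratory supercomplexes, had -0.25 (adjusted p = 0.27). Ndufa4, named for complex I but now counted as a subunit of complex IV, differed by 0.09 (adjusted p = 0.66).

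Most restricted forms lay near or below the filter of 5 on the log2 scale, where small signals are hard to tell from none. Cox6a2 and Cox8c lay higher, between 5.76 and 6.32 and between 5.50 and 6.25. Cox7b2, a testis form, lay between 3.26 and 3.77 and Cox8b, a muscle form, between 3.82 and 4.72 on all arrays. Cox7a1, the heart and muscle form, measured 5.01, 4.81 and 5.04 in Mock, 4.24, 4.70 and 4.69 with AAV-IFNα, and 4.60, 4.89 and 4.59 in the combination. It had a difference of -0.41 with AAV-IFNα (limma adjusted p = 0.088). It passed the filter only through Mock, since every value in both injected groups lay under 5. A lower value in those groups was thus favoured in advance. Cox7a1 is counted among the 24 members lower at an unadjusted p under 0.05 in limma's test and the 34 without overlap. Cox4i2, the lung form induced by low oxygen, measured 5.37, 5.25 and 5.41 in Mock, 4.86, 5.08 and 5.19 with AAV-IFNα, and 5.03, 5.04 and 5.14 in the combination, with a difference of -0.30 (adjusted p = 0.13). Both injected groups lay below Mock. Ndufa4l2, a relative of Ndufa4 that is induced by low oxygen, had -0.31 (adjusted p = 0.16), and was called without AAV-IFNα replicate 3 (adjusted p = 0.047). Cox6a2, Cox6b2 and Cox8c, forms of muscle and testis, had -0.08, 0.01 and -0.03.

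Complex V, the ATP synthase, has a catalytic F1 head and a membrane part, Fo, joined by stalks. With AAV-IFNα the 5 F1 members had a median of -0.12 with 0 called, and the 12 Fo and stalk members had -0.15 with 1 called lower. The catalytic Atp5b measured 11.11, 11.32 and 10.87 in Mock, 11.20, 11.22 and 11.21 with AAV-IFNα, and 11.34, 11.22 and 11.39 in the combination. Its AAV-IFNα mice lay within the range of Mock, with a difference of 0.11 (95% interval -0.18 to 0.40). Atp5a1, the other large F1 subunit, differed by 0.06 (-0.22 to 0.34).

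Atp5g1, Atp5g2 and Atp5g3 encode the same mature subunit c, the rotor ring of Fo, with different import sequences. Atp5g1 measured 9.35, 9.71 and 9.18 in Mock, 8.82, 8.86 and 8.87 with AAV-IFNα, and 9.21, 9.01 and 9.13 in the combination. Its AAV-IFNα mice lay below all others. The difference was -0.56 ± 0.14 (limma adjusted p = 0.018), and the call was lost without Mock replicate 2 or AAV-IFNα replicate 1 or 2, with an adjusted p up to 0.058. Atp5g2 had -0.20 (95% interval -0.56 to 0.16) and Atp5g3 had -0.14 (-0.40 to 0.13). That Atp5g1 differed from these copies in its response was not tested.

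In the AAV combination no member was called against Mock, whereas 5.21% of all probe sets were called, 1.03% lower and 4.19% higher. At an unadjusted p under 0.05 in limma's test, 5 members were lower and 1 higher, against 9.22% and 13.2% of all probe sets, and 0 had a B-statistic above 0, against 2.40%. The median over the members was -0.01, against 0.00 over all probe sets. Over the 65 members with a mean above 8 it was 0.00, with 52.3% of them below 0, against 0.10 and 33.1% for all probe sets with such a mean. By complex it was 0.00 for I, 0.07 for II, -0.15 for III, -0.03 for IV and 0.03 for V. The mice did not overlap in 8 members on the lower side and 3 on the higher side, against 12.5% and 15.3% of all probe sets. The median of the members depended on the scaling, with -0.14 after another quantile normalization and -0.11 after cyclic loess normalization.

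The lowest members in the combination were Ndufb10, at -0.47 ± 0.13 (limma adjusted p = 0.055), and Cox4i1, at -0.47 ± 0.15 (adjusted p = 0.095). Without combination replicate 1, the array on which the members were highest, both were called, at -0.56 (adjusted p = 0.044) and -0.63 (adjusted p = 0.034). Cox4i1 replicate 1 measured 9.56, whereas replicates 2 and 3 measured 9.10 and 9.09. The highest member was Ndufv2, which measured 8.67, 8.57 and 8.36 in Mock and 9.09, 8.78 and 8.91 in the combination, a difference of 0.39 ± 0.14 (adjusted p = 0.13) without overlap. For the other 8 members called with AAV-IFNα, the log2 differences in the combination were -0.41 for Ndufb7, -0.38 for Uqcrq, -0.30 for Atp5g1, -0.26 for Uqcr11, -0.25 for Uqcrfs1, -0.22 for Ndufb11, -0.19 for Ndufs1 and -0.12 for Ndufv1. Both comparisons use the same Mock arrays.

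The direct comparison of the combination with AAV-IFNα tests whether the injected groups differed, and no member was called, whereas 2.6% of all probe sets were called, 0.394% higher and 2.2% lower. At an unadjusted p under 0.05 in limma's test, 6 members were higher and 0 lower, against 3.94% and 7.89% of all probe sets, and 0 had a B-statistic above 0, against 1.78%. The median over the members was 0.15, against 0.01 over all probe sets, and 86 of 91 members were above 0, against 51.1% of all probe sets. In 22 members every combination mouse lay above every AAV-IFNα mouse, against 7.40%, and in 0 members did every one lie below, against 10.1%. The 36 subunits of complex I all had a difference above 0. By complex the median was 0.20 for I, 0.13 for II, 0.16 for III, 0.06 for IV and 0.13 for V. Without combination replicate 1 the median over the members was 0.09.

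The 6 members with an unadjusted p under 0.05 were Ndufaf2, Ndufv1, Cox7a2, Ndufb11, Ndufb5 and Ndufs1, chosen after their values were seen. Ndufaf2, an assembly factor of complex I, measured 6.01, 6.14 and 6.01 with AAV-IFNα and 6.40, 6.34 and 6.41 in the combination. It had a difference of 0.33 (limma adjusted p = 0.25) without overlap. Ndufv1 differed by 0.33 (95% interval 0.06 to 0.59; adjusted p = 0.26), Ndufb11 by 0.33 (0.04 to 0.62; adjusted p = 0.32) and Ndufs1 by 0.37 (0.02 to 0.72; adjusted p = 0.38). Cox4i1 differed by 0.07 (adjusted p = 0.93) and Ndufb7 by 0.11 (adjusted p = 0.88). The largest difference was that of Ndufaf3, an assembly factor, at 0.42 (adjusted p = 0.52), and the lowest that of Cox6b2, at -0.26 (adjusted p = 0.64). For no member is a call against Mock with AAV-IFNα, and none in the combination, a tested difference between the injected groups.

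Genes that feed or serve the chain were taken from 5 lists of named genes. Of 16 genes of the citric acid cycle and pyruvate oxidation, 2 (12.5%) were called lower with AAV-IFNα and 0 higher, with a median of -0.14. Of all probe sets, 5.06% were called lower and 11.2% higher. The calls describe single genes, and no list was tested as a whole. Dlat and Pdha1 encode parts of the pyruvate dehydrogenase complex. Dlat measured 8.77, 9.55 and 8.87 in Mock, 8.04, 8.67 and 8.01 with AAV-IFNα, and 8.69, 8.69 and 8.35 in the combination. It was lower with AAV-IFNα by -0.82 ± 0.22 (limma adjusted p = 0.023), and the call was lost without Mock replicate 2 or AAV-IFNα replicate 1 or 3, with an adjusted p up to 0.088. Pdha1 was lower by -0.53 ± 0.17 (adjusted p = 0.046), which lost its call when any 1 of Mock replicates 1 to 3, AAV-IFNα replicates 1 and 3 and combination replicate 3 was left out, up to an adjusted p of 0.14.

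A list of 16 genes covered cytochrome c, coenzyme Q synthesis, the electron transfer flavoprotein genes Etfa and Etfdh, and Cyc1. Of these, 1 (6.25%) was called higher, against 11.2% of all probe sets. This was Coq7, a hydroxylase of coenzyme Q synthesis, at 0.49 ± 0.13 (limma adjusted p = 0.024). Cyc1, the cytochrome c1 subunit of complex III, has a symbol outside the member families. It differed by -0.26 (adjusted p = 0.31). Of 35 further assembly factors of complexes I to V, 2 (5.71%) were called higher, against the same 11.2%. These were Cox15, needed to make the haem of complex IV, at 0.60 ± 0.17 (adjusted p = 0.031), and Sdhaf2, which helps Sdha take up its flavin, at 0.46 ± 0.14 (adjusted p = 0.042). Of 7 genes of ADP/ATP and phosphate carriers, the VDAC channels and Ppif, 1 (14.3%) was called higher, again against 11.2%. This was the ADP/ATP carrier Slc25a4, at 0.64 ± 0.18 (adjusted p = 0.027), and the median of the 7 was 0.21. The uncoupling proteins Ucp1 and Ucp3 of that list did not pass the filter and were not tested. Each of Coq7, Cox15 and Slc25a4 lost its call without Mock replicate 1 or 3 or AAV-IFNα replicate 1 or 2, with an adjusted p up to 0.090, 0.12 and 0.11, and Sdhaf2 when any 1 of Mock replicates 1 to 3, AAV-IFNα replicates 1 and 2 and combination replicate 3 was left out, up to 0.14.

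Of 15 regulators of mitochondrial biogenesis, 1 (6.67%) was called lower with AAV-IFNα, against 5.06% of all probe sets. It was also the 1 gene of the 5 lists called in the combination, where 1.03% of all probe sets were called lower. This was Polg, the polymerase of mitochondrial DNA, which measured 6.64, 6.58 and 6.44 in Mock, 6.10, 6.21 and 6.15 with AAV-IFNα, and 6.01, 6.23 and 5.94 in the combination. Both injected groups lay below Mock, by -0.40 ± 0.13 (limma adjusted p = 0.047) and -0.49 ± 0.13 (adjusted p = 0.040). The first call was lost when any 1 of the 9 arrays was left out, up to an adjusted p of 0.13, and the second when any 1 of 8 arrays was left out, all but combination replicate 2, up to 0.17. Ppargc1a, the coactivator known to raise transcription of these genes, differed by 0.24 (adjusted p = 0.33) with AAV-IFNα, without a call. No gene of the 5 lists was called between the injected groups in limma's test, against 2.6% of all probe sets. At an unadjusted p under 0.05 in that test the citric acid cycle had 2 (12.5%) higher and 0 lower, against 3.94% and 7.89%. Its median was 0.18, against 0.01 over all probe sets.

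**Figure D4:**
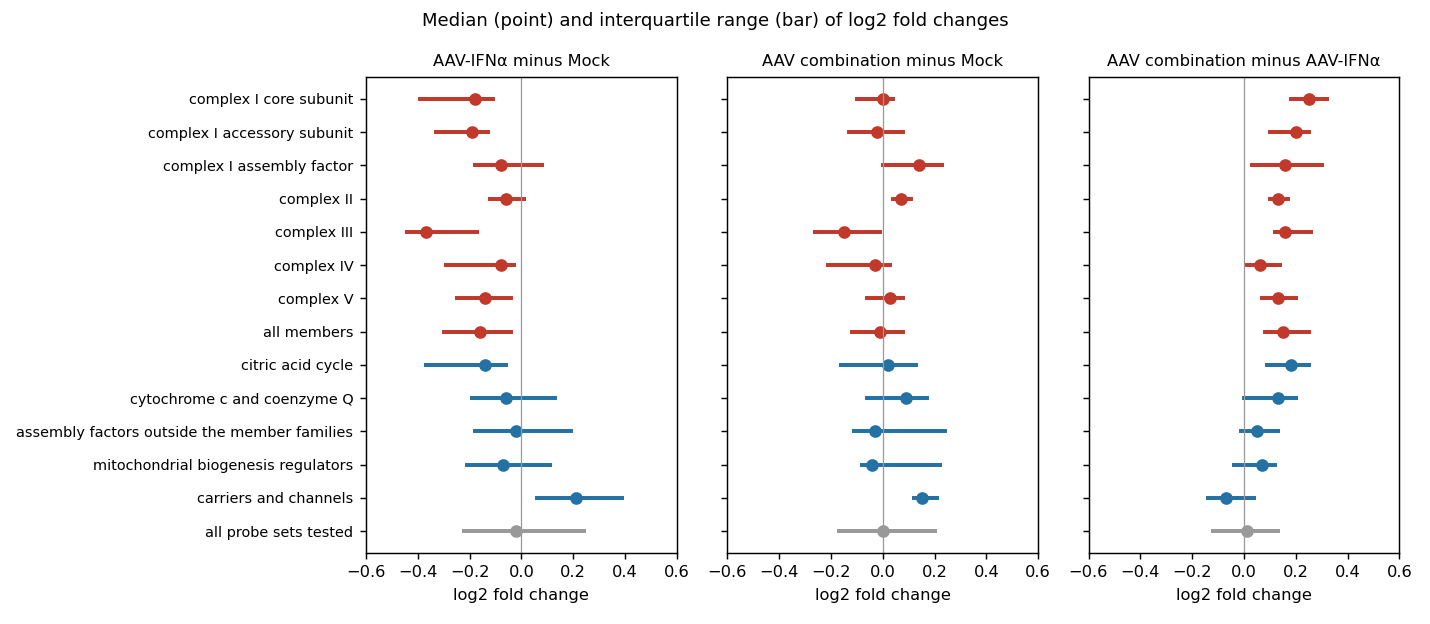
Median (points) and interquartile range (bars) of log2 fold changes for the members by complex and class, 5 companion lists and all probe sets tested, in the 3 comparisons. With AAV-IFNα against Mock, complex III has the lowest median of the 5 complexes, at -0.37, and the carriers and channels have the highest of the 5 lists, at 0.21.

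In RNA of whole liver, fewer hepatocytes cannot be told apart from less RNA per hepatocyte. Of 7 leukocyte markers, 5 were tested, and 4 of these were called higher with AAV-IFNα. Cd3e and Cd79a did not pass the filter. The mean log2 level of the 7 lay between 5.31 and 5.56 on the Mock arrays. It lay between 6.68 and 7.39 with AAV-IFNα, and 5.90 and 6.14 in the combination. The AAV-IFNα arrays had both the highest mean of these markers and the lowest median of the members. The group mean was under the filter value of 5 for 3 of the 7 in Mock, 1 with AAV-IFNα and 2 in the combination. Ly6c2, which enters the mean of the 7, had the largest difference from Mock, at 5.06 with AAV-IFNα and 3.59 in the combination. Its Mock values of 4.87, 4.77 and 4.22 all lay under 5, so it was tested only through the injected groups. Its difference was thus measured from the floor, and a call lower than Mock was hardly possible. Of the 5 tested, 2 were called higher in the combination than in Mock, with 3 differences above 0 and 2 below. The markers thus did not move alike. Against AAV-IFNα, 4 were called lower in the combination. Of these, Ptprc kept its call when any 1 array was left out, and Itgam, Ly6c2 and Nkg7 did not. The mean of the 4 Kupffer cell markers, none of them under 5, lay between 7.22 and 7.27 in Mock, 7.64 and 7.78 with AAV-IFNα, and 7.42 and 7.78 in the combination. Against Mock, only Adgre1 was called with AAV-IFNα (0.97, limma adjusted p = 0.0021) and only Vsig4 in the combination (0.72, adjusted p = 0.022). Between the injected groups Adgre1 was called lower in the combination (-0.80, adjusted p = 0.029). There Timd4 differed by -0.42, Clec4f by 0.32 and Vsig4 by 0.22, without a call. The Vsig4 call and the second Adgre1 call were each lost without any 1 of 4 arrays. The mean of the 7 hepatocyte markers was at 12.31 to 12.39, 12.26 to 12.30 and 12.35 to 12.39. Their median log2 difference from Mock with AAV-IFNα was 0.02, with 5 of the 7 above 0 and 2 below. The 1 marker called was Cyp2e1. It was lower with AAV-IFNα (-0.72, limma adjusted p = 0.0059) and higher in the combination than with AAV-IFNα (0.63, adjusted p = 0.047). The second call was lost when any 1 of 8 arrays was left out, all but Mock replicate 2, up to an adjusted p of 0.20. Alas2, the erythroid marker measured here, lay at 6.79 to 7.19 in Mock, 6.34 to 6.59 with AAV-IFNα and 6.37 to 6.87 in the combination. It was lower with AAV-IFNα (-0.51, adjusted p = 0.044), which was lost when any 1 of Mock replicates 1 and 2, AAV-IFNα replicates 1 to 3 and combination replicate 2 was left out, up to 0.14. Their part in the lower members was not tested.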

How the data were processed

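Liver RNA of 9 mice was measured on 1 array each. The authors background-corrected, normalized and summarised the arrays with RMA, and the deposited values are log2 values of 22142 probe sets. Sources differ on the array (Clariom S mouse in the methods, another Affymetrix mouse array in the design text) and on the RNA (total in the methods, polyA in the labels). Arrays were grouped by their titles, and array medians lay between 5.78 and 5.83. A filter worded as in the methods (above 5 in 2 or more samples of a condition) and read on the log2 scale left 14715 of the 22142 deposited probe sets. The methods state that about as many probe sets as were deposited passed their filter. The set tested and adjusted over here was thus smaller than theirs, and how their filter was read is not given. The 14715 were tested two-sided with limma 3.58.1 in R 4.3.3, in 1 fit over 9 arrays with 6 residual and 6.91 prior degrees of freedom and Benjamini-Hochberg adjustment. With 3 against 3 mice an exact test cannot go below p = 0.10. The labels number the mice but do not say that equal numbers mark a pair.

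Gene symbols came from the platform annotation, where 19527 probe sets have 1 symbol and 2615 were unnamed here. The members and lists were chosen with earlier results of these data known. Named genes were up to 4 called members per complex and comparison, core subunits, and isoforms of complex IV and V. They also included the highest and lowest member and up to 3 called genes of each list. Ndufb7, called in complex I beyond these 4, was added after its values were seen. Others are said to be chosen after their values were seen, or are given without a call beside these. The settings varied were the filter (none, or above 6), the prior (trended and robust), the scaling (another quantile normalization, median centring), array weights, 1 probe set per gene, a replicate block, a fit of only the 2 groups, the B-statistic, and each array left out. Cyclic loess normalization was added after the data were seen. The fit was tested on simulated data. Figures used matplotlib 3.10.9 in Python 3.11.15.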

Additional observations from a re-analysis of the deposited data

How the results depend on the processing

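For AAV-IFNα against Mock, the 10 calls became 22 with another quantile normalization, 6 when only the 2 groups were fitted and 1 with a B-statistic above 0, and between 2 and 9 without 1 array. The other alternatives gave 8 to 13. The median of the members moved from -0.16 to -0.27 with another quantile normalization and lay between -0.18 and -0.12 without 1 array. For the combination against Mock, the count of 0 became 1 (Ndufb10) with a filter above 6, with a trended and robust prior, with another quantile normalization, with median centring and with cyclic loess, 2 (Ndufb10 and Cox4i1) with array weights, and 0 to 2 without 1 array. The median moved from -0.01 to -0.14 with another quantile normalization and to -0.11 with cyclic loess, and lay between -0.06 and 0.04 without 1 array. For the combination against AAV-IFNα, 0 members were called under each alternative, and the median lay between 0.09 and 0.18. The cause of these shifts was not tested, except that fewer arrays were used where an array was left out. No member that was called under any of these settings changed its direction.

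With the replicate number as a block, 9, 0 and 0 members were called in the 3 comparisons, and Uqcr11 lost its call against Mock (limma adjusted p = 0.061). The numbers share no stated pairing, and correlations of same-numbered mice lay between -0.13 and 0.22. Array signal limits most restricted forms of complex IV, whose values lie near or below the filter. No AAV-L37pA or control vector arm was analysed, protein levels and respiration were not analysed here, and differences of this size were called or not depending on single arrays.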
